A study of Mus musculus with 6 samples.

Results

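The immunoglobulin heavy chain variable segments were taken as the rows of the deposited gene table whose symbol begins with Ighv. There were 111 such rows among 30777. All 111 lie on the minus strand of mouse chromosome 12, within chr12:113572927-116010093 of GRCm38, and all matched a GENCODE M21 gene by identifier with the same start and end. Their annotated types were 94 immunoglobulin variable genes, 16 variable pseudogenes and 1 gene, Ighv6-5, listed as protein coding. The number after Ighv in the symbol gives the family, and 15 families were present. The study measured polyadenylated RNA of colon tissue from BALB/c mice in 2 groups of 3 libraries. The 5-Fu group had received 5-fluorouracil, a pyrimidine analog used in chemotherapy that damages the gut lining, and the 5-Fu+BBR group had received 5-fluorouracil and berberine, a plant alkaloid. Both groups therefore share 5-fluorouracil, and libraries without it were not analysed here. The labels give no dose, time, age or sex, and do not say that the libraries came from separate animals, so a p-value speaks only of the variation among these 6 libraries, which may be technical.

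An antibody heavy chain is encoded by 1 V, 1 D and 1 J segment, joined in a developing B cell, followed by a constant gene that sets the class of the antibody. Each B cell or plasma cell thus carries RNA of mainly 1 Ighv segment, and in a tissue the Ighv segments add up over many clones. In the colon most antibody RNA is made by plasma cells of the lamina propria that secrete IgA, while naive B cells sit in lymphoid follicles. Many Ighv families also have older names, such as J558 for Ighv1, Q52 for Ighv2 and S107 for Ighv7. The reference segments are those of C57BL/6J, whose heavy chain locus differs from that of BALB/c mice, and how reads of BALB/c segments were assigned, or whether some were lost, was not tested. Values of single segments are uncertain for that reason, and also because reads may be split between near-identical copies.

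The family is a matter of sequence. Over the exon that encodes the variable region (the longest exon of the transcript), members of 1 family had a median identity of 85.4% over 1672 pairs, and members of different families had 61.8% over 4433 pairs. The last 60 bases of this exon are shown for the most counted segment of each family that held at least 1% of Ighv counts. They are shown because, where the exon reaches the end of the gene, this end joins the D and J segments. The same end carries the codon of the conserved cysteine that opens the third complementarity-determining region. Sequences are from the GENCODE M21 transcripts, 5′ to 3′ on the minus strand, and capitals mark the match to TNCTGT nearest to the 3′ end, whose last 3 bases are that codon.
Ighv1-9: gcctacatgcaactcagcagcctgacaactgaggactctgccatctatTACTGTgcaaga
Ighv2-9: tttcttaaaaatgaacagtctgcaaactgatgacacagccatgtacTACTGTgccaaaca
Ighv3-6: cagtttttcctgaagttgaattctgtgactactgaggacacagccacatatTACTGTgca
Ighv4-1: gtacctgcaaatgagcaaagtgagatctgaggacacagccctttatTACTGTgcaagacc
Ighv5-17: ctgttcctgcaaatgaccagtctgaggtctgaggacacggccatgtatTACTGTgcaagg
Ighv6-6: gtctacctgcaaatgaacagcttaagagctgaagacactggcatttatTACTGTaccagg
Ighv7-3: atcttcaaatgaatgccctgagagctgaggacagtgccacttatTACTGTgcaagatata
Ighv8-12: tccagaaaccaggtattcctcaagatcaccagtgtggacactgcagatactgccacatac
Ighv9-3: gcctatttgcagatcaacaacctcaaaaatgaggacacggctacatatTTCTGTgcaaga
Ighv10-1: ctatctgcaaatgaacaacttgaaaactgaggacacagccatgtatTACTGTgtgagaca
Ighv14-3: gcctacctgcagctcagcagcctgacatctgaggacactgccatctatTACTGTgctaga
TNCTGT was found on the coding strand in the last 30 bases of 97 of 111 exons (87.4%) and on the other strand in 0. Among 976 windows of 30 bases further upstream in the same exons, 4.1% held it on the coding strand and 0.82% on the other. Of the 11 family leaders, Ighv8-12 alone lacked these letters in its window. Its exon stops at position 115647961, whereas the annotated gene runs on to 115647945, so the end that joins D and J lies outside the window. The exon of Ighv3-6 also stops short, at 114288157 against 114288152. Letters beyond these exons were not examined. A match is a description of the letters only.

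Total estimated counts were 53824752 to 63831168 per library, and no pair of libraries held identical values. The 6 colon epithelium markers examined (Epcam, Vil1, Krt20, Car1, Slc26a3 and Muc2) summed to 5817 to 9041 CPM in every library, where CPM is the count scaled to library size with TMM factors. Sums of other tissue markers were higher with berberine without overlap. The 4 smooth muscle genes summed to 1588 to 2099 CPM in 5-Fu against 3022 to 3446 CPM in 5-Fu+BBR. The 7 T cell genes summed to 23.7 to 31.0 against 44.4 to 75.2 CPM. The 7 follicular dendritic and lymphoid stroma genes summed to 92.6 to 171 against 211 to 274 CPM. Singly, 5 of these last 7 were higher without overlap, against 9.31% of all rows of the table. Cxcl13 was lower on average, at 55.1 to 62.4 CPM in 5-Fu against 47.6 to 58.2 CPM in 5-Fu+BBR. Cr2 and Fcer2a of the same list are also counted among the B cell genes below, so the lists are not independent. The libraries 5-Fu+BBR 2 and 5-Fu+BBR 3 stood apart by 6 kidney transcripts, which summed to 180.0 and 182 CPM in them, to 37.0 CPM in 5-Fu+BBR 1 and to 45.2 to 59.0 CPM in 5-Fu. Kap, a kidney androgen-regulated protein, was at 109 and 105 CPM in those libraries and at 7.89 to 10.5 CPM in the other 4. Nphs1, a podocyte gene, did not set them apart, at 23.2 and 30.6 CPM against 19.1 to 40.9 CPM in the other 4. The part of these transcripts and markers in the Ighv results was not tested, and values for 5-Fu+BBR 1 alone are given beside them.

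The Ighv segments as a whole were higher on average with berberine, but the groups overlapped. Summed over all 111, the level was 90.8, 109.5 and 242 CPM in 5-Fu 1, 2 and 3, and 216, 531 and 507 CPM in 5-Fu+BBR 1, 2 and 3. The means were 147 ± 82.5 and 418 ± 175 CPM (SD, n = 3 each), a ratio of 2.83. The library 5-Fu+BBR 1 lay below 5-Fu 3, and the other berberine libraries lay above all of 5-Fu. On FPKM, which also scales by length, the sums were 211, 266 and 519 in 5-Fu and 476, 1257 and 1185 in 5-Fu+BBR, with the same overlap. The summed counts behind these levels were 5040 to 12286 in 5-Fu and 12764 to 29359 in 5-Fu+BBR, between 0.00907% and 0.0543% of a library. In bulk tissue, more cells of a type and more RNA per cell cannot be told apart.

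**Figure D1:**
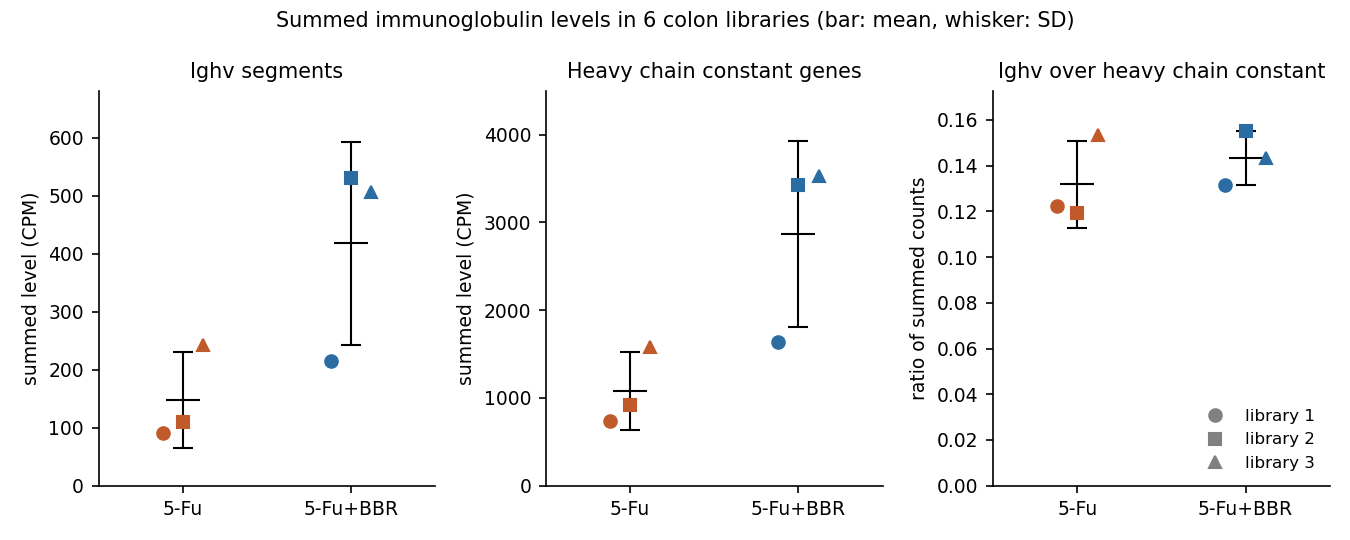
Summed level of the 111 Ighv segments (left) and the 8 heavy chain constant genes (middle) in CPM, and the ratio of their summed counts (right), in each library; bars are means and whiskers SD over 3 libraries. The Ighv sum of 5-Fu+BBR 1 (216 CPM) lies under that of 5-Fu 3 (242 CPM), while the ratio lies between 0.119 and 0.155 in all 6 libraries.

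Segment by segment, the direction was nearly uniform and few segments could be told from the spread. Ighv7-3 was the segment that passed the test across all genes, and it was higher with berberine; 0 passed as lower. Of the 111 segments, 81 had enough counts to be tested, and 30 did not. Among all 20101 genes tested with edgeR's quasi-likelihood test and Benjamini-Hochberg adjustment, 0.0597% passed an adjusted p of 0.05 as higher and 0.0149% as lower. The log2 fold change was above 0 for 77 of the 81 segments, with a median of 1.55, against 50.7% of all genes and a median of 0.01. The median was the same with Ighv1-11, which had 0 counts in 5-Fu, set at its lower bound. At an unadjusted p under 0.05, 34 of the 81 (42.0%) were higher and 0 lower, against 9.48% and 6.08% of all genes tested. The filter asks for enough counts in 3 libraries, so a segment can be tested through 1 group alone, as Ighv1-11 was. The segments also share the same 6 libraries and their Ighv total, so these counts are not separate results. As a share of Ighv counts, the mean was higher for 59 of the 111 segments and lower for 52. The calls depended on the fit: DESeq2 called 22 Ighv segments higher and 0 lower, and edgeR called 0 when 5-Fu 1 or 5-Fu+BBR 2 was left out and 4 without 5-Fu 3. Over all genes the counts moved alike: DESeq2 called 880 higher and 347 lower, and edgeR called 0 of either without 5-Fu 1 or without 5-Fu+BBR 2, and 44 higher and 9 lower without 5-Fu 3. With 5-Fu+BBR 1 alone against 5-Fu, 0 of all genes passed.

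**Figure D2:**
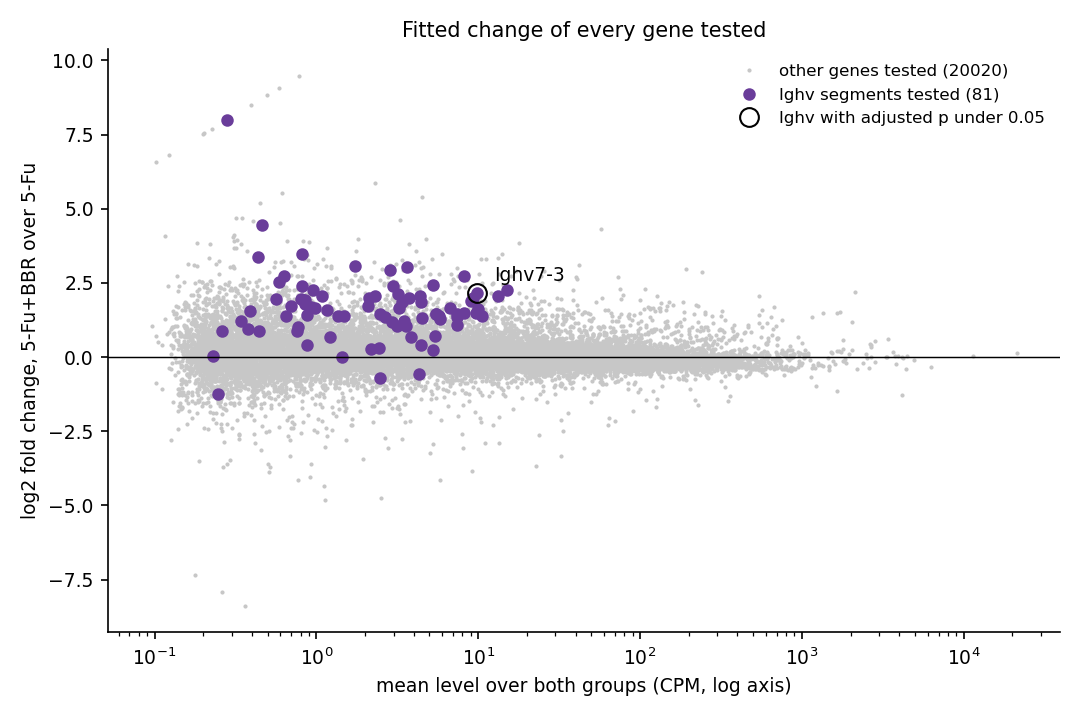
Log2 fold change of 5-Fu+BBR over 5-Fu against the mean level (CPM, log axis) for the genes tested, with the 81 Ighv segments in purple and Ighv7-3, which passed, circled. 77 of the 81 segments lie above 0, around a median of 1.55, and the other genes lie on both sides of 0.

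Ighv7-3 belongs to the small S107 family, which is known for antibodies against phosphorylcholine that use its member Ighv7-1. It lies at chr12:114153180-114153644, 723 kb from Ighj1, the J segment nearest to the variable segments. Its level was 2.86, 3.71 and 4.26 CPM in 5-Fu 1, 2 and 3, and 16.03, 16.3 and 15.9 CPM in 5-Fu+BBR 1, 2 and 3. The berberine libraries were thus nearly equal to each other and far above the other group. The log2 fold change was 2.16 ± 0.198 (SE), with an adjusted p of 0.0161 in edgeR. Without 5-Fu 1 the adjusted p was 0.0814, and without 5-Fu+BBR 2 it was 0.14, with log2 fold changes of 2.01 and 2.14. For 5-Fu+BBR 1 alone the log2 fold change was 2.14, with an adjusted p of 0.49 in edgeR.

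As a share of the Ighv counts of its library, Ighv7-3 overlapped between groups. It held 3.15%, 3.38% and 1.76% in 5-Fu, and 7.43%, 3.07% and 3.14% in 5-Fu+BBR. It was the second most counted segment in 5-Fu+BBR 1 and the eighth in both other berberine libraries. The last 300 bases of its variable exon (chr12:114153180-114153479, minus strand) are shown because this is the segment that passed, with the TNCTGT nearest to the 3′ end in capitals.
Ighv7-3: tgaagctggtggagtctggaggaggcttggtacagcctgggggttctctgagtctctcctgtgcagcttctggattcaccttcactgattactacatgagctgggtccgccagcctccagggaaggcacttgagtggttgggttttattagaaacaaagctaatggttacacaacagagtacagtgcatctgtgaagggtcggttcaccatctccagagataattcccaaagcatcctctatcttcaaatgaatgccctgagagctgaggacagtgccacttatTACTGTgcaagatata
The nearest annotated copy was Ighv7-2, at 95.2% identity over 315 bases. Ighv7-2 had 0 counts in all 3 libraries of 5-Fu and 24, 15 and 0 in 5-Fu+BBR. Ighv7-1, at 89.6% identity to Ighv7-3, was at 0.540, 1.70 and 1.73 CPM in 5-Fu and at 1.13, 0.941 and 8.86 CPM in 5-Fu+BBR, with a log2 fold change of 1.46 ± 0.962 and an adjusted p of 0.526 in edgeR. The S107 family as a whole was therefore mostly Ighv7-3, which held 64.2% to 93.1% of its counts in each library.

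Over all 111 segments, tested or not, the mean CPM was higher with berberine for 97 (87.4%), against 53.2% of all rows of the table, and lower for 14, against 46.8% of all rows. The groups did not overlap for 23 segments that were higher (20.7%), against 9.31% of all rows. They did not overlap for 2 segments that were lower, against 6.88% of all rows. The lower ones were Ighv1-76 (6, 3 and 8 counts in 5-Fu and 0 in each berberine library) and Ighv1-81 (9, 12 and 31 against 8, 0 and 8 counts), both named after their values were seen. Such counts are at the level of a few fragments, since 1 fragment can be worth about 4 of the estimated counts. The groups overlapped for 86 segments.

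Ighv2-9, of the Q52 family, had the highest mean count of all Ighv segments and was the segment among the 10 most counted in all 6 libraries. It was at 3.91, 4.14 and 7.76 CPM in 5-Fu and at 18.0, 34.9 and 22.3 CPM in 5-Fu+BBR. The groups did not overlap and the log2 fold change was 2.25 ± 0.352, but its adjusted p of 0.0839 in edgeR missed the threshold. Leaving out 1 library in turn gave 0.0395 without 5-Fu 3 and 0.0636 to 0.356 without any other. Its share of Ighv counts did not overlap either, with 3.21% to 4.31% in 5-Fu and 4.40% to 8.34% in 5-Fu+BBR. By share, the groups did not overlap for 8 of the 111 segments that were higher, Ighv2-9 among them, and for 6 that were lower. For scale, by CPM rather than share, they did not overlap for 9.31% of all rows as higher and 6.88% as lower. The mean share was higher for 59 segments and lower for 52.

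Ighv2-2, of the same family and 91.1% identical to Ighv2-9, was at 3.48, 6.61 and 4.79 CPM in 5-Fu and at 15.2, 19.99 and 10.2 CPM in 5-Fu+BBR. Its log2 fold change was 1.61 ± 0.318 with an adjusted p of 0.108 in edgeR. Ighv2-6, 94.7% identical to Ighv2-9, followed another course: it was at 1.46, 1.82 and 3.15 CPM in 5-Fu, at 3.06 and 8.85 CPM in 5-Fu+BBR 1 and 2, and at 30.5 CPM in 5-Fu+BBR 3. That last library set its log2 fold change of 2.72 ± 0.869, which was 1.48 without it.

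Ighv6-6, of the J606 family, was at 2.92, 4.75 and 3.90 CPM in 5-Fu and at 13.6, 10.003 and 19.2 CPM in 5-Fu+BBR. Its log2 fold change was 1.89 ± 0.293, with an adjusted p of 0.0752 in edgeR. Ighv14-3 was at 2.27, 5.00 and 3.88 CPM in 5-Fu and at 6.36, 23.9 and 14.1 CPM in 5-Fu+BBR, with a log2 fold change of 1.99 ± 0.51 and an adjusted p of 0.162 in edgeR. Neither overlapped between groups, and neither passed. Ighv5-17, the most counted of the Ighv5 family, did not overlap either, at 2.38 to 7.13 CPM in 5-Fu, against 8.15 to 24.1 CPM in 5-Fu+BBR, with an adjusted p of 0.267 in edgeR.

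Other much-used segments overlapped because 5-Fu+BBR 1 stayed low or 5-Fu 3 was high. Ighv3-6 was at 5.55, 2.17 and 7.69 CPM in 5-Fu, at 4.02 CPM in 5-Fu+BBR 1, and at 26.5 and 33.9 CPM in 5-Fu+BBR 2 and 3. Its log2 fold change of 2.07 ± 0.848 had an adjusted p of 0.326 in edgeR, and with 5-Fu+BBR 1 alone it was -0.36. Ighv1-9, the leader of the J558 family, was at 1.60 and 1.37 CPM in 5-Fu 1 and 2 and at 14.6 CPM in 5-Fu 3, against 4.85, 13.9 and 27.3 CPM in 5-Fu+BBR. Its adjusted p was 0.606 in edgeR. Ighv9-3 overlapped by a single pair of libraries, 5-Fu 3 at 8.04 CPM and 5-Fu+BBR 1 at 7.17 CPM.

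Ighv8-12 was high in 1 library, at 24.0 CPM in 5-Fu+BBR 2 against 2.32 and 4.10 CPM in the other berberine libraries and 1.64, 2.74 and 5.30 CPM in 5-Fu. Its log2 fold change of 1.65 ± 0.967 was -0.01 without that library. Ighv10-1 differed least among the tested segments named by the rules given below, although some other tested segments differed less. Ighv10-1 was at 4.23, 2.05 and 5.07 CPM in 5-Fu and at 3.58, 6.15 and 5.38 CPM in 5-Fu+BBR. Its log2 fold change was 0.41 ± 0.372, with an adjusted p of 0.642 in edgeR. Ighv1-69 and Ighv1-52, both of Ighv1 and 94.4% identical, were lower in level and did not overlap. Ighv1-69 was at 0.473 to 1.24 CPM in 5-Fu, against 2.62 to 11.1 CPM in 5-Fu+BBR, with an adjusted p of 0.11 in edgeR. Ighv1-52 was at 0.506 to 1.60 CPM and 2.76 to 6.91 CPM, with an adjusted p of 0.121 in edgeR.

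**Figure D3:**
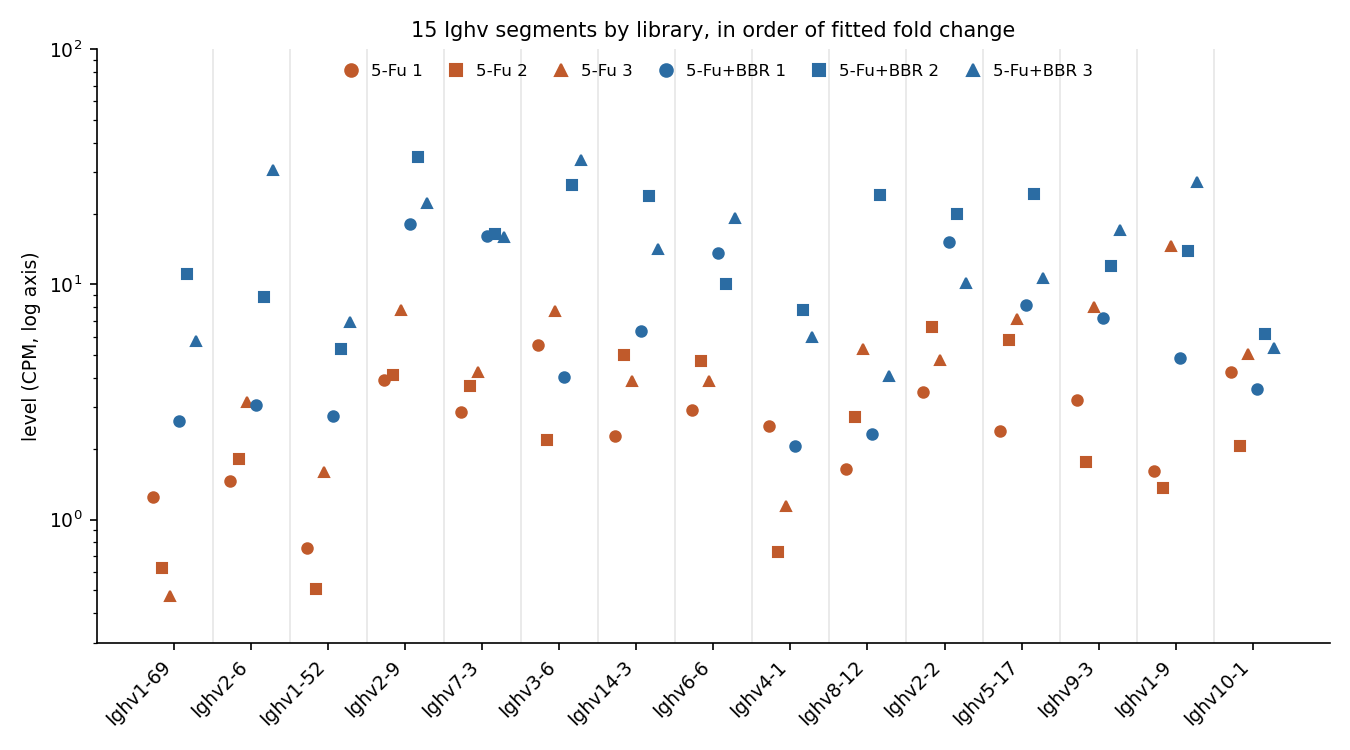
Level (CPM, log axis) of 15 named Ighv segments above 0 in every library, ordered by fitted fold change; each point is 1 library. The berberine libraries of Ighv7-3 lie between 15.9 and 16.3 CPM, whereas those of Ighv8-12 lie between 2.32 and 24.0 CPM.

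A few segments were read in 1 group only. Ighv1-11 had 0 counts in all 5-Fu libraries and 18, 33 and 43 counts in 5-Fu+BBR, at least 8.00-fold higher when 5-Fu is set at a floor of 12 counts over the group, and its adjusted p was 0.0976 in edgeR. Ighv1-42 had 0 counts in 5-Fu and 6, 60 and 161 in 5-Fu+BBR, at least 19.3-fold higher, but was left out of the test by its low counts. In the other direction, the pseudogene Ighv5-1 had 136 counts in 5-Fu 3 and 0 in the other 5 libraries, and Ighv9-2 had 0, 11 and 60 counts in 5-Fu and 0 in 5-Fu+BBR. In all, 11 segments were at 0 throughout 5-Fu and 5 throughout 5-Fu+BBR, and 62 were above 0 in every library. The bounds cover counting error only.

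Families 11 and 12 are known from B-1 cells, the self-renewing B cells of the body cavities, and were close to absent. Ighv11-2, the member of family 11 in the table, had 0 counts in 5-Fu and 13, 0 and 33 counts in 5-Fu+BBR. Ighv12-2, a pseudogene and the most counted of family 12, had 0, 0 and 51 counts in 5-Fu and 8, 6 and 20 in 5-Fu+BBR. Ighv12-3, annotated as a variable gene, had 0, 0 and 4 counts in 5-Fu and 0, 11 and 0 in 5-Fu+BBR. It was named after its values were seen. Both families together held a far smaller part of Ighv counts than any of the 11 main families: family 11 held 0.0485% and family 12 0.118% of the counts of all libraries.

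Usage, the share of Ighv counts that a family or segment holds in its own library, does not depend on the library's size. Ighv1, the largest family with 56 members, held the most in every library: 27.3%, 26.8% and 45.7% in 5-Fu, and 27.8%, 35.0% and 32.2% in 5-Fu+BBR. The groups overlapped, and 5-Fu 3 was the highest of all 6. Ighv2, with 8 members, held 12.3%, 14.5% and 8.16% in 5-Fu and 21.8%, 15.8% and 15.3% in 5-Fu+BBR. It was the family among the 11 main ones whose share was higher without overlap, at 11.7 ± 3.22% against 17.6 ± 3.61% (SD, n = 3 each). Ighv10, with 2 members, was the one whose share was lower without overlap, at 4.66%, 2.19% and 2.17% in 5-Fu and 1.73%, 1.24% and 1.14% in 5-Fu+BBR. These shares are described without a test, because the families were examined with earlier results of these libraries known; an exact permutation test of 3 libraries against 3 could not give a p under 0.1.

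The other main families overlapped in share. Ighv5 held 8.69% to 15.7% in 5-Fu and 10.8% to 11.7% in 5-Fu+BBR. Ighv14 held 3.78% to 11.6% and 5.65% to 8.31%, and Ighv3 held 5.46% to 10.95% and 4.63% to 8.67%. Ighv4, with 2 members, was at 5.26% in 5-Fu 1 and between 0.887% and 2.94% in the other 5 libraries. Ighv6, Ighv7, Ighv8 and Ighv9 each held between 2.47% and 8.27% in every library. In level, the summed mean CPM was higher with berberine for all 11 main families and for 13 of all 15, the exceptions being the rarely read Ighv12 and Ighv13. Without overlap it was higher for Ighv2, Ighv6, Ighv7 and Ighv14. For scale, 9.31% of all single rows of the table were higher without overlap. For Ighv10 the level was 2.40 to 5.26 CPM in 5-Fu, against 3.74 to 6.602 CPM in 5-Fu+BBR, so its lower share went with a level that overlapped.

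**Figure D4:**
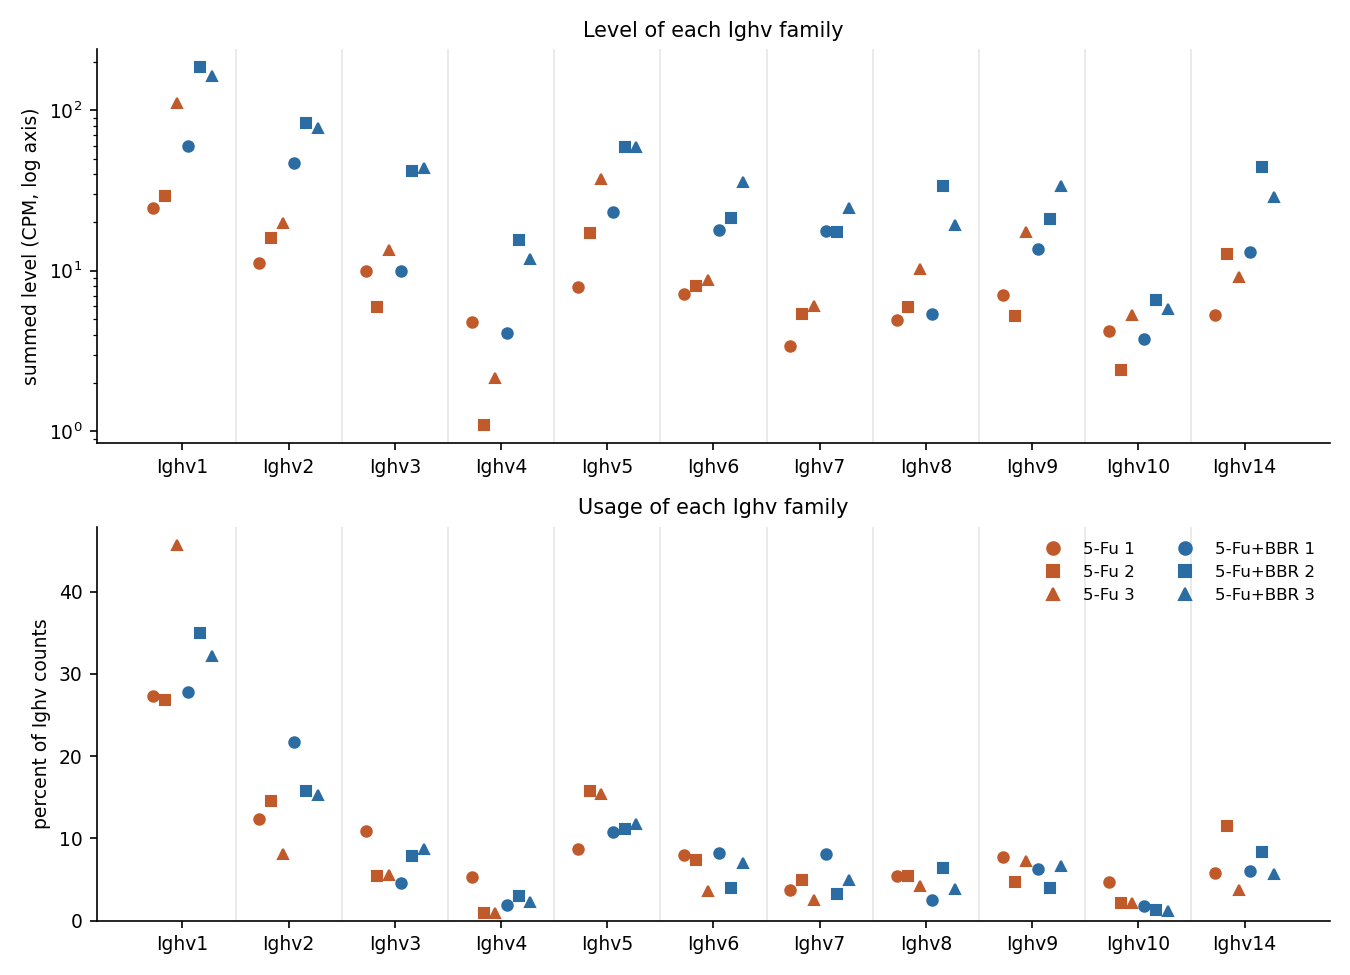
Summed level in CPM on a log axis (top) and share of Ighv counts in percent (bottom) for the 11 families with at least 1% of Ighv counts; each point is 1 library. The shares of Ighv2 in 5-Fu+BBR (15.3% to 21.8%) lie above those in 5-Fu (8.16% to 14.5%), and the share of Ighv1 reaches 45.7% in 5-Fu 3.

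A family's share was not proportional to its number of segments. The percent of counts divided by the percent of members, as a mean over the libraries of a group, was 2.33 in 5-Fu and 2.38 in 5-Fu+BBR for Ighv6, 1.62 and 2.44 for Ighv2, and 1.96 and 1.85 for Ighv14. For Ighv1 it was 0.659 and 0.627, and it was below 1 in each library. Within a family the leading segment also varied: Ighv3-6 held 36.3% to 77.0% of Ighv3, and Ighv1-9 held 4.67% to 16.7% of Ighv1. Ighv14-3 held 39.5% to 43.0% of its family in 5-Fu and 48.5% to 54.1% in 5-Fu+BBR, without overlap.

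Among the 5-Fu libraries, 5-Fu 3 had the highest Ighv sum and the highest Ighv1 share. It had the highest share of all 6 libraries for 21 of the 111 segments, and the other libraries had it for 15 to 23. Next to Ighv1-9, its most counted segments were Ighv1-22, with 5.44% of its Ighv counts, and Ighv1-26, with 5.01%. Ighv1-22 was at 13.2 CPM in 5-Fu 3 and at 0.811 to 5.21 CPM in the other 5 libraries, and Ighv1-84 was at 7.45 CPM against 0.450 to 2.04 CPM. These segments were named after their values were seen. Ighv1-22 and Ighv1-84 were among the 4 of 81 tested segments with a log2 fold change below 0, at -0.58 ± 1.09 and -0.71 ± 0.912, with adjusted p of 0.848 and 0.758 in edgeR. The others were Ighv13-2 and Ighv5-9-1.

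Many segments contributed in every library. The effective number of segments, the inverse Simpson index of the shares, was 37.8, 39.0 and 38.7 in 5-Fu, and 29.7, 37.7 and 36.9 in 5-Fu+BBR. The groups did not overlap on counts, although only 5-Fu+BBR 1 stood clearly lower; they overlapped on FPKM and with the exponential of the Shannon entropy. The 10 most counted segments held 39.5% to 40.5% of Ighv counts in 5-Fu and 46.9%, 41.1% and 41.6% in 5-Fu+BBR. In 5-Fu+BBR 1 the lead was taken by Ighv2-9 (8.34%), Ighv7-3 (7.43%), Ighv2-2 (7.04%) and Ighv6-6 (6.31%). The most counted segment of the other libraries was Ighv3-6 in 5-Fu 1, Ighv2-2 in 5-Fu 2, Ighv1-9 in 5-Fu 3, Ighv2-9 in 5-Fu+BBR 2 and Ighv3-6 in 5-Fu+BBR 3, at 6.02% to 6.68%. Over all libraries 25 segments entered a top 10, 11 of them in 1 library only.

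Most segments were read in each library. Segments with at least 12 counts numbered 61, 70 and 79 in 5-Fu, and 72, 89 and 86 in 5-Fu+BBR. Thinned to 5040 Ighv counts, the smallest total, the 5-Fu libraries would be expected to show 75, 86.4 and 88.8 segments with a count. The 5-Fu+BBR libraries would be expected to show 86.1, 94.8 and 89.4, which overlapped. Each estimated count was drawn singly, although 1 fragment can be worth about 4 of them, so depth may be evened out only in part. Pseudogenes held 6.27% to 8.98% of Ighv counts, overlapping between groups. Usage was about as alike between 5-Fu libraries as across groups. Between berberine libraries it was mostly more alike in rank, with a range that touched that across groups. The overlap of shares within either group lay inside the range across groups. As a description over the 111 segments, which share the locus and its mapping, Spearman's rho was 0.752 to 0.81 between 5-Fu libraries, 0.807 to 0.859 between berberine libraries and 0.771 to 0.811 across groups. The overlap of shares, the summed smaller share of each segment, was 64.7% to 69.5%, 67.7% to 72.3% and 63.1% to 75% in the same order.

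Along the locus, segments near the J segments were used more than distant ones in every library. Ordered by distance from Ighj1 and split into 4 parts of 27 or 28 segments, the nearest part (Ighv5-1 to Ighv11-2, 143 to 618 kb) held 30.7%, 41.1% and 27.6% in 5-Fu and 38.2%, 34.7% and 34.8% in 5-Fu+BBR. The next part, up to 1182 kb, held 30.7% to 43.7% in 5-Fu and 31.2% to 40.6% in 5-Fu+BBR. The further part, up to 1764 kb, held 25.1% in 5-Fu 3 and 12.7% to 16.5% in the other libraries. The most distant part, up to 2580 kb and made of Ighv1 and Ighv8 alone, held 9.50% to 17.6%. Together the 2 nearer parts, 55 of 111 segments, held 60.1% to 74.4% in 5-Fu and 65.9% to 76.7% in 5-Fu+BBR. The share overlapped between groups in each part, while the summed CPM was higher with berberine without overlap in the 2 nearer parts.

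**Figure D5:**
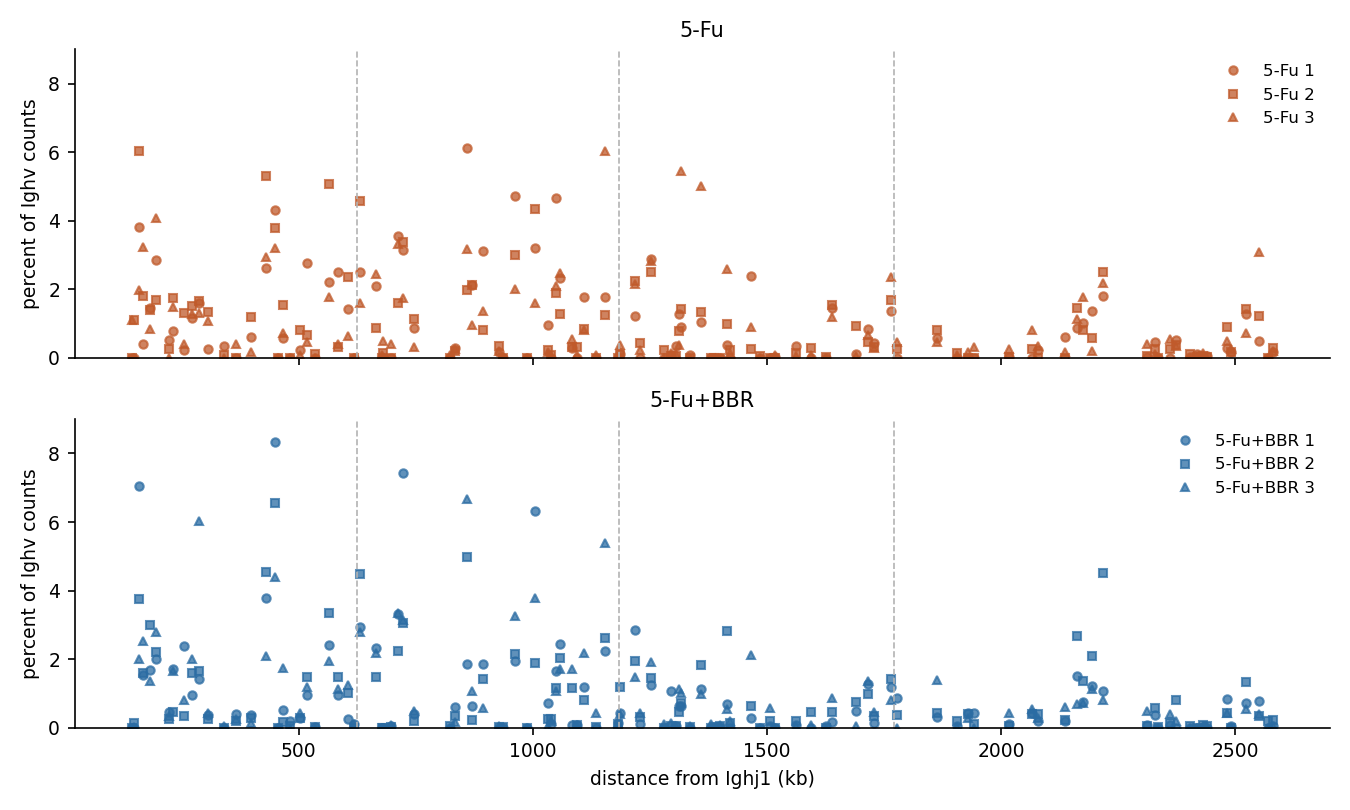
Share of Ighv counts in percent of each segment against its distance from Ighj1 in kb, by library, for 5-Fu (top) and 5-Fu+BBR (bottom); dashed lines separate the 4 parts of the locus. The 2 nearer parts hold 60.1% to 76.7% of the counts of each library, and the highest single share is 8.34%, for Ighv2-9 in 5-Fu+BBR 1.

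Near-identical copies were common. An annotated Ighv copy at 95% identity or more existed for 65 of the 111. The 2 members of Ighv4 are such a pair: the gene Ighv4-1 (chr12:113948282-113948796) and the pseudogene Ighv4-2 (chr12:114013144-114013606) differed at 13 of the last 300 bases of their variable exons, marked in capitals.
Ighv4-1: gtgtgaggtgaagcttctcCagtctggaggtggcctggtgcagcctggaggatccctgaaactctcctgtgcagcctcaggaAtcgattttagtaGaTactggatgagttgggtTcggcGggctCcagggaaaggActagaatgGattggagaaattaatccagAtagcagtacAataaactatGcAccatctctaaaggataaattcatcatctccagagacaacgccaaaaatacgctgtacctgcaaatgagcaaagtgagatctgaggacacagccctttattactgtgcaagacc
Ighv4-2: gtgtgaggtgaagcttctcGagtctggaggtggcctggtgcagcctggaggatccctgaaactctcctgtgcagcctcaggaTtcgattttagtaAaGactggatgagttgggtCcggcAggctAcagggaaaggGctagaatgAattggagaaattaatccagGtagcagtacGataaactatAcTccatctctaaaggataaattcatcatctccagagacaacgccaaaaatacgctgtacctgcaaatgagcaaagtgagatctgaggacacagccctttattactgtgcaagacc
Their counts were within a few percent of each other in 5-Fu+BBR and differed most in 5-Fu 2. Ighv4-1 had 139, 49 and 58 counts in 5-Fu and 122, 432 and 333 in 5-Fu+BBR, and Ighv4-2 had 126, 24 and 51, and 121, 431 and 321. The sources used here do not say how the authors' counting divided reads between the copies, and the sum of the pair was 4.77, 1.09 and 2.15 CPM in 5-Fu, against 4.11, 15.6 and 11.8 CPM in 5-Fu+BBR.

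The Ighv sum moved with the other antibody genes of its library. The 8 heavy chain constant genes, of which Igha made up 77.1% to 89.6% of counts, summed to 742, 917 and 1577 CPM in 5-Fu, against 1642, 3426 and 3534 CPM in 5-Fu+BBR. The 111 kappa variable segments (Igkv) summed to 307, 385 and 661 CPM and to 687, 1608 and 1637 CPM. Neither overlapped between groups, unlike the Ighv sum. The 3 lambda variable segments (Iglv) overlapped as Ighv did, at 30.0, 22.8 and 170 CPM in 5-Fu, against 50.7, 148 and 208 CPM in 5-Fu+BBR. The ratio of Ighv to heavy chain constant counts was 0.122, 0.119 and 0.154 in 5-Fu and 0.131, 0.155 and 0.143 in 5-Fu+BBR, and that of Ighv to Igkv counts was 0.285 to 0.366 and 0.310 to 0.330. Both ratios overlapped, with means that differed by less than the SD of either group for Ighv over heavy chain constant counts. The highest Ighv to Igkv ratio was in 5-Fu 3, the library with the high Ighv1 share. Of the constant genes tested, 0 of 8 heavy and 0 of 4 light passed in edgeR. At an unadjusted p under 0.05 in edgeR, 3 of each were higher, against 9.48% of all genes tested.

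Markers of the cells that carry Ighv RNA were summed beside it. The 16 plasma cell genes summed to 1612, 1489 and 1848 CPM in 5-Fu, against 1675, 2387 and 2356 CPM in 5-Fu+BBR, overlapping. Cd38 and Txndc5 weighed most in the 5-Fu sums, with means of 503 and 311 CPM, against 321 and 345 CPM in 5-Fu+BBR. Taken singly, 4 of the 16 genes were higher without overlap, against 9.31% of all rows. Their means in 5-Fu and 5-Fu+BBR were 0.452 and 2.30 CPM for Tnfrsf17, and 1.92 and 6.17 CPM for Slamf7. They were 6.38 and 15.8 CPM for Tnfrsf13b, and 29.5 and 60.4 CPM for Pou2af1. Only 1, Cd38, was lower without overlap, against 6.88% of all rows. Of the 16, 0 passed in edgeR. At an unadjusted p under 0.05 in edgeR, 6 were higher and 1, Cd38, lower, against 9.48% and 6.08% of all genes tested. Jchain, which links IgA dimers, was at 216, 244 and 389 CPM in 5-Fu, against 365, 1086 and 1097 CPM in 5-Fu+BBR, with 5-Fu+BBR 1 below 5-Fu 3 as for Ighv. The 16 B cell genes summed to 216, 471 and 292 CPM in 5-Fu, against 656, 734 and 636 CPM in 5-Fu+BBR, without overlap. Of them 0 passed and 14 were higher at an unadjusted p under 0.05, and 15 did not overlap. Ms4a1 (CD20), for example, was at 4.86, 23.0 and 9.24 CPM, and 32.9, 50.2 and 44.8 CPM. In 5-Fu 2 and 5-Fu 3 the order of B cell genes and Ighv was opposite, with 471 against 292 CPM for the B cell list and 109.5 against 242 CPM for Ighv. The part of such markers in the Ighv values was not tested.

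Of the genes of germinal centres and V(D)J recombination, 6 of the 8 in the table were tested and 0 passed in edgeR. Rag2 and Dntt, which act when segments are joined in developing B cells, were at 0 in 5 and 4 libraries and at most 0.0722 and 0.217 CPM in the others. Of the 13 genes of IgA induction and transport, 12 were tested and 0 passed in edgeR. At an unadjusted p under 0.05 in edgeR, 5 were higher and 0 lower, against 9.48% and 6.08% of all genes tested. Itga4, an integrin subunit of gut homing, was at 12.2, 15.6 and 18.6 CPM in 5-Fu, against 29.3, 38.1 and 35.2 CPM in 5-Fu+BBR, with an adjusted p of 0.0752 in edgeR. Pigr, the epithelial receptor that carries IgA into the lumen, was at 2704 to 4367 CPM in 5-Fu, against 3340 to 4170.4 CPM in 5-Fu+BBR, overlapping.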

How the data were processed

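RNA of colon tissue was measured in 6 libraries, whose groups come from the labels. Polyadenylated RNA was made into strand-marked libraries with molecular identifiers and sequenced as paired reads, per the labels' protocols. Per the submitters' processing notes, the build was GRCm38 and the tools were HISAT2 2.0.4, StringTie 1.3.4d, cutadapt 1.9, edgeR, DESeq2 and UMI-tools; what each did, the annotation and the use of the identifiers are not given in the sources used here. The deposited table holds, per the file headers, estimated counts and FPKM computed by the authors. In genes over 20 kb with 1 transcript, 4 was the commonest count below 25 (670 values, against 353 at 3 and 146 at 5), so a floor of 3 fragments was set at 12 counts over a group.

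The counts were fitted over all genes with edgeR 4.0.16 (filterByExpr, TMM, robust quasi-likelihood test, two-sided, R 4.3.3), with Benjamini-Hochberg adjustment over 20101 genes. The replicate spread was shared across both groups. DESeq2 1.42.0 and limma 3.58.1 (voom) were alternatives, as were RLE factors, other filters, counts divided by 4, a replicate block, FPKM, and leaving out each library. The fit was tested on simulated data. Sums, shares, the inverse Simpson index and distances from Ighj1 were computed from the estimated counts and the deposited coordinates, and carry no test. Exons were compared by pairwise alignment with Biopython 1.88. Total counts were 53824752 to 63831168 per library. A chi-square per gene between libraries was at least 82.3, so no library was a repeat of another.

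Named segments were those that passed, the 10 with the highest mean count, the leader of each family with at least 1% of counts, up to 6 more with the smallest p, up to 4 at 0 in 1 group, and the leaders of families 11 and 12; others are said to be named after their values were seen. The members, lists and tests were chosen with earlier results of these data known. Promoter sequences of Ighv segments were not analysed here.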

Additional observations from a re-analysis of the deposited data

How the results depend on the processing

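The count of Ighv segments that passed as higher was 1 and moved with the fit. It was 22 with DESeq2, 2 without a filter on low counts, 4 at an adjusted p of 0.1, and 0 to 4 when a library was left out (0 without 5-Fu 1 or 5-Fu+BBR 2, 4 without 5-Fu 3). It was 1 with RLE factors, limma-voom, at least 50 counts in 3 samples and counts divided by 4. The count that passed as lower was 0 in each of 15 alternatives. Over all genes, edgeR called 12 higher and 3 lower, DESeq2 880 and 347, and no filter 64 and 13; it called 0 and 0 without 5-Fu 1 or 5-Fu+BBR 2, and 44 and 9 without 5-Fu 3. The replicate block gave 2 Ighv segments higher, Ighv7-3 and Ighv14-3, and 91 genes higher and 22 lower over the table. Same-numbered libraries deviated together by r = 0.0579, 0.0242 and 0.123, and 5-Fu 2 correlated best with 5-Fu+BBR 1 (0.104), so the numbers were not taken to pair the libraries.

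An alternative chosen after seeing the data, 5-Fu+BBR 1 alone against 5-Fu, gave 0 segments. It gave a log2 ratio of the summed level of 0.69 (main 1.53, and 1.25 to 1.96 without 1 library), a difference in the Ighv2 share of 10.1 percentage points (main 5.94, 3.87 to 7.37) and one in the effective number of segments of -8.80 (main -3.73, -5.18 to -1.19). In that alternative the log2 fold changes of Ighv3-6, Ighv1-9, Ighv8-12 and Ighv10-1 were -0.36, -0.27, -0.49 and -0.086, and that of Ighv8-12 was -0.0087 to 2.21 without 1 library (the lowest without 5-Fu+BBR 2); none of the 4 passed in the main fit. The differences in the Ighv1 share, the Ighv10 share, the share of the nearer parts of the locus and the ratio to constant genes moved by less than 1 SD in all alternatives run; the Ighv1 difference of -1.59 points ranged from -4.82 to 4.63 without 1 library and the locus difference of 3.86 points from -0.47 to 7.26. The cause of these shifts was not tested. Low counts limit the 25 segments with a mean under 12.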

Other observations

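The J segments, which are joined to the Ighv segments in the same transcripts, varied between libraries as well. Ighj4 held the most of the counts of the 4 Ighj segments in every library, 37.9% to 39.9% in 5-Fu and 39.7% to 44.8% in 5-Fu+BBR. Ighj1 held 6.76%, 8.45% and 25.8% in 5-Fu and 15.1%, 1.22% and 11.3% in 5-Fu+BBR, so the library 5-Fu 3, with the highest Ighv1 share, also had the highest Ighj1 share. The ratio of Ighv to Ighj counts was 7.74 to 9.92 in 5-Fu and 8.17 to 9.99 in 5-Fu+BBR.

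Among the constant genes, Ighg2c was highest in 5-Fu 3 too, at 87.2 CPM against 8.95 and 2.28 CPM in the other 5-Fu libraries. It was at 4.497, 54.2 and 46.8 CPM in 5-Fu+BBR. Ighg2a was looked for and was absent from the deposited genes. Whether reads of other BALB/c constant genes were assigned to Ighg2c was not tested. Ighg1 was at 1.06 to 4.32 CPM in 5-Fu and at 7.46, 58.6 and 10.9 CPM in 5-Fu+BBR, with a log2 fold change of 3.47 ± 1.03 and an adjusted p of 0.225 in edgeR.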
